A study of Mus musculus with 22 samples.

Results

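The genes described here are the mouse Wnt ligands (Wnt), their frizzled receptors (Fzd), the co-receptors Lrp5, Lrp6, Ror1, Ror2 and Ryk, and 2 families of secreted inhibitors, the secreted frizzled-related proteins (Sfrp) and the Dickkopf proteins (Dkk). They were found by gene symbol in the deposited table and number 42 of 49671 genes. Of these, 22 passed a minimum of 10 in 2 or more of the 22 libraries and were tested, 13 were seen only in traces and 7 were listed at 0 throughout. The detected genes were 10 of 19 ligands, 8 of 10 frizzled receptors and 4 of 5 co-receptors. None of the 4 Sfrp and 4 Dkk genes was detected by that rule.

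The libraries are bulk RNA-seq of tumour cell lines grown from a primary mouse tumour whose genotype, per the labels, included Lgr5CreER, p53fl/fl and Rosa26-YFP+/+, alleles that all groups share. The Cre recombinase in that tumour was thus driven by Lgr5, a gene of stem and progenitor cells. From these lines, knockout lines of Pitx1, Klf5, Nfatc1 and Creb3l1, each a transcription factor, were made with CRISPR/Cas9 and are set here against a control line. Living mCherry+ YFP+ cells were sorted by flow cytometry into EPCAM- and EPCAM+ fractions, EPCAM being a surface protein of epithelial cells. The groups, with 2 libraries each, are EPCAM- and EPCAM+ cells at day 8 of the Pitx1KO, Klf5KO, Nfatc1KO, Creb3l1KO and control lines, and EPCAM+ cells of the control line at day 0. The labels do not say what began at day 0. They also leave unstated whether replicates were separate cultures or clones, so the p-values measure only the spread between these samples.

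Wnt proteins are lipid-modified ligands that leave the cell with the carrier Wls and act over short distances. Bound to a frizzled receptor and Lrp5 or Lrp6 they stabilise beta-catenin, which drives target genes with TCF/LEF factors. Bound to frizzled receptors with Ror or Ryk they act on cell polarity and movement without beta-catenin, a branch for which Wnt5a is the best-known ligand. Sfrp proteins bind the ligands themselves, and Dkk proteins block Lrp5 and Lrp6. In skin and other epithelia, Wnt7b, Wnt10a and Wnt10b are made by the epithelial cells.

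Values below are the deposited ones, read counts scaled by the authors to 1 common total per library, and are called units. The libraries held 6054919 to 9882692 reads in genes, and 1 read was worth 2.0 to 3.3 units, so that 3 reads, the limit that a count of 0 allows, came to 6.07 to 9.91 units. Such limits cover counting error only. The sort was visible in the RNA: Epcam stood at 90 to 735 units in EPCAM- libraries and 3702 to 7320 units in EPCAM+ libraries of day 8. Pitx1 was at 1205 to 1627 units in the 4 Pitx1KO libraries and 4358 to 6438 units in the 4 control libraries of day 8, and Nfatc1 was at 182 to 249 units in Nfatc1KO cells and 488 to 981 units in control cells. Klf5 RNA was not lower in the libraries labelled Klf5KO, with 1961 to 2247 units against 1733 to 2941 units in control cells of day 8. Creb3l1 RNA was at 0 to 6 units in the libraries labelled Creb3l1KO, at 0 to 8 units in the other knockout lines, and at 137 and 26 units in control EPCAM- cells but 0 in both control EPCAM+ libraries of day 8. The RNA therefore gives no check of the Klf5KO and Creb3l1KO labels, and results from them are given for the libraries labelled so.

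Per kilobase of exon, 2 ligands made up most of the Wnt RNA. Wnt7b, a ligand of epithelial cells, held a median of 42.8% of the summed ligand units per kilobase over the 22 libraries (range 13.4 to 64.5%), and Wnt10a, a ligand of skin, hair and tooth epithelium, held 39.3% (14.5 to 70.0%). Wnt7a, the close relative of Wnt7b, followed with 8.86% (0.364 to 22.1%) and Wnt10b, a relative of Wnt10a, with 5.54% (2.05 to 10.1%). Wnt9a, Wnt4, Wnt5a, Wnt11, Wnt16 and Wnt2b each had a median share under that of Wnt10b, of 1.9% for Wnt9a and 0.0984% for Wnt2b. Wnt7b lay above Wnt10a in 14 of the 22 libraries and below it in the rest, and Wnt7a lay below both in all 22.

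The 6 ligands in traces were Wnt1, Wnt2, Wnt3, Wnt5b, Wnt6 and Wnt8b, and the highest value among them was 19 units, for Wnt6 in 1 library. Wnt3a, Wnt8a and Wnt9b were listed at 0 in every library. Several Wnt genes lie in pairs on the chromosome, and in 3 of 4 such pairs 1 gene was detected and the other was not (positions on GRCm38). On chromosome 1, Wnt10a lies 6.19 kb from Wnt6 and reached 4245 units against 19 units for Wnt6. On chromosome 15, Wnt10b lies 11.7 kb from Wnt1 and reached 444 units against 8 units for Wnt1. On chromosome 11, Wnt9a lies 16.2 kb from Wnt3a and reached 393 units, while Wnt3a was listed at 0. On the same chromosome Wnt9b and Wnt3, 24.3 kb apart, reached 0 and 6 units, and neither was detected. The genes differ in length, and the values show only which of a pair was detected.

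Among the receptors, Fzd2 held a median of 32.7% of the summed frizzled units per kilobase (23.7 to 43.7%), Fzd6 held 27.2% (18.0 to 37.6%), Fzd5 17.0% (11.5 to 28.4%), Fzd1 14.0% (8.30 to 20.4%) and Fzd7 5.15% (2.70 to 10.3%). These 5 overlapped in range with their neighbours in that order. Fzd4 held 1.04%, and Fzd9 and Fzd8 were near the read limit, with at most 20 and 26 units. Fzd3 and Fzd10 were listed at 0. Among the co-receptors, Lrp6 ranged from 3030 to 4775 units, Lrp5 from 1566 to 3977 units and Ryk, a Wnt-binding receptor without an active kinase, from 1290 to 1881 units. Ror1, a Wnt5a receptor, ranged from 52 to 241 units, whereas its relative Ror2 never passed 3 units. No Sfrp gene passed 5 units and no Dkk gene passed 6 units in any library, and Sfrp4 and Dkk1 were listed at 0 throughout.

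**Figure D1:**
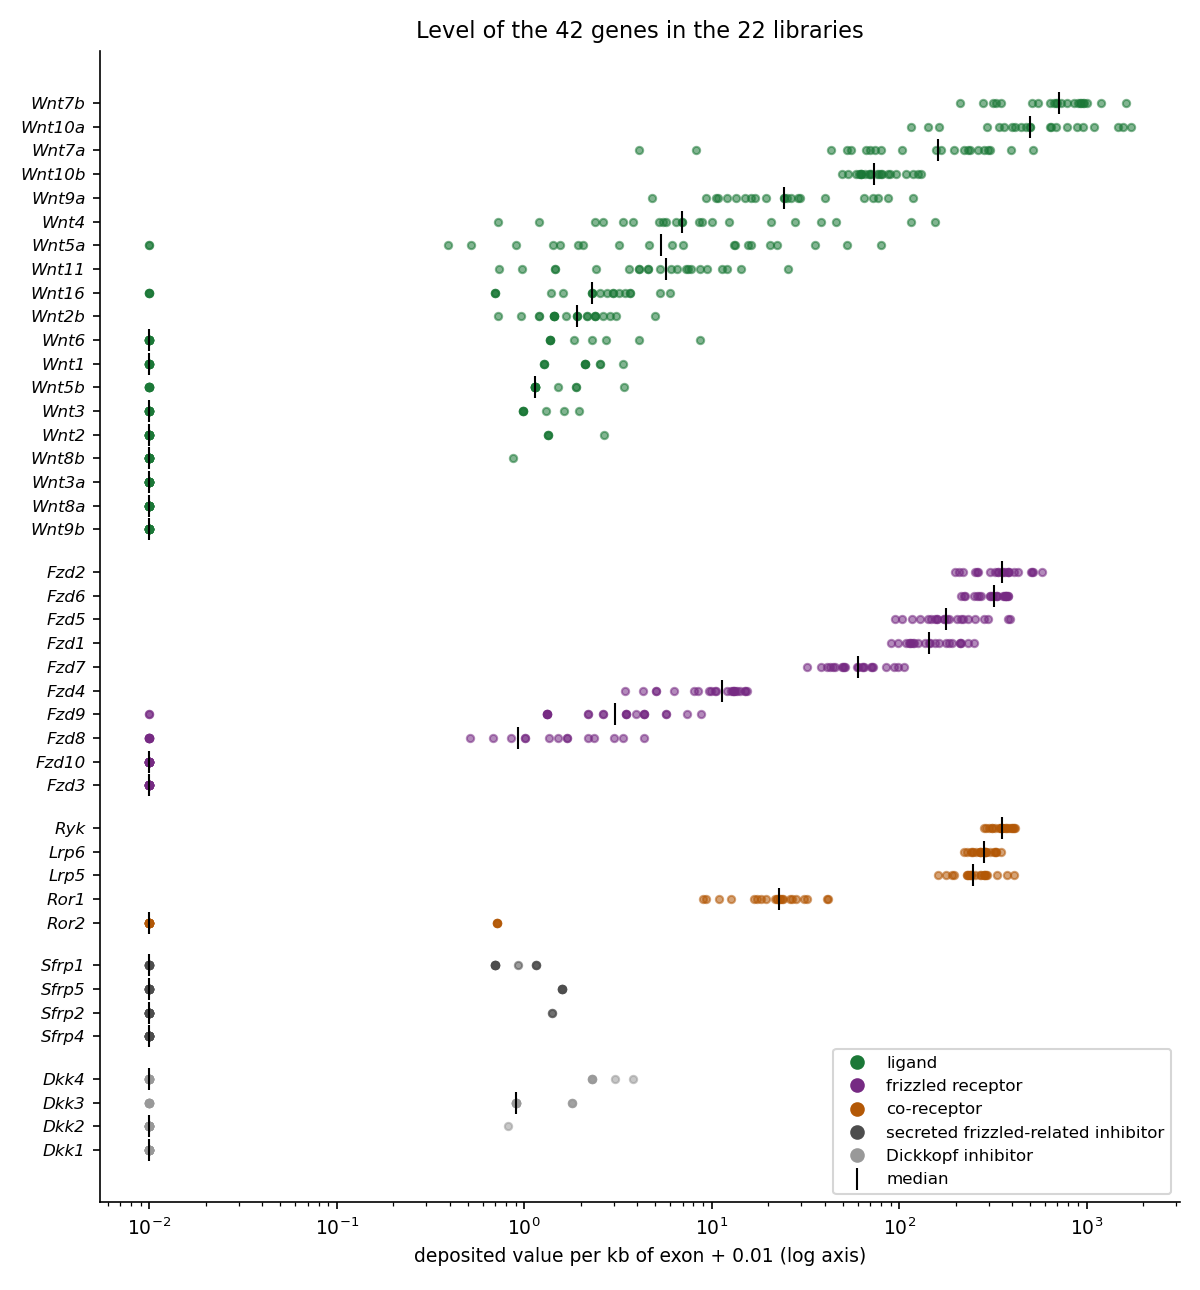
Each point is 1 of 22 libraries, placed by the deposited value per kilobase of exon plus 0.01 on a log axis, with 1 row per gene, colour by role and a black tick at the median. Wnt7b and Wnt10a lead the ligands and Fzd2 and Fzd6 the frizzled receptors, while the Sfrp and Dkk genes stay at or near 0.

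Between the fractions at day 8, averaged over the 5 lines, Wnt5a, Fzd2 and Fzd7 rose in EPCAM- cells and Wnt7a, Wnt7b and Wnt10a fell. That is 6 of 22 tested genes, 3 in each direction, where 6.22% of all 19569 tested genes were called, 2.74% as higher and 3.49% as lower. A call is an adjusted p under 0.05 by limma with Benjamini-Hochberg adjustment over all genes tested. The median log2 difference was 0.02 over the 22 genes and 0.06 over all tested genes. With the replicate number as a block, 9 of the 22 were called, against 10.1% of all tested genes, the additions being a rise of Fzd1 and falls of Wnt4 and Lrp5. In bulk RNA, fewer cells of a type and less RNA per cell cannot be told apart.

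Wnt7a (ENSMUSG00000030093, chr6:91363981-91411363, minus strand, GRCm38) was lower in EPCAM- cells of every line. It had 167 and 328 units in Pitx1KO EPCAM- cells against 625 and 755 in EPCAM+ cells, 13 and 26 against 137 and 175 in cells labelled Klf5KO, and 236 and 211 against 974 and 529 in Nfatc1KO cells. In cells labelled Creb3l1KO it had 742 and 498 units in the EPCAM- fraction against 1648 and 1249 in the EPCAM+ fraction, and in control cells 223 and 253 against 838 and 902. Both EPCAM- libraries lay below both EPCAM+ libraries in each of the 5 lines, although the level of the line labelled Klf5KO was low and that of the line labelled Creb3l1KO high in both fractions. The log2 difference was -1.87 (SE 0.16, adjusted p 9.8e-07 by limma), with means of 270 ± 216 units in EPCAM- and 783 ± 459 units in EPCAM+ libraries (SD, n = 10 each), 2.90-fold lower in EPCAM- cells. The call held on leaving out any 1 of the 20 libraries.

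The bases upstream of the start of Wnt7a, the ligand that fell most between fractions, are shown beside those of Fzd7, a receptor that rose, in the RefSeq annotation of GRCm38.p6. The windows hold the 250 bases before the RefSeq start, at chr6:91411354-91411603 on the minus strand for Wnt7a and chr1:59481897-59482146 on the plus strand for Fzd7. These starts differ from the GENCODE positions given for both genes. The Wnt7a window reaches into the GENCODE gene, and the Fzd7 window ends short of base 59482424, where the GENCODE gene begins. Capitals mark GGGCGGG on either strand, the GC box bound by Sp and Krüppel-like factors, a motif picked after the values were seen.
Wnt7a: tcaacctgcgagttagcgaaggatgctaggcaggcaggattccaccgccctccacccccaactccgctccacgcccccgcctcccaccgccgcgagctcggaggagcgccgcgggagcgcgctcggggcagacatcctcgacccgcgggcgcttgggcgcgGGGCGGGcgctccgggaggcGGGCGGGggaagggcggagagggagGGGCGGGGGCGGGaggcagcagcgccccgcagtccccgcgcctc
Fzd7: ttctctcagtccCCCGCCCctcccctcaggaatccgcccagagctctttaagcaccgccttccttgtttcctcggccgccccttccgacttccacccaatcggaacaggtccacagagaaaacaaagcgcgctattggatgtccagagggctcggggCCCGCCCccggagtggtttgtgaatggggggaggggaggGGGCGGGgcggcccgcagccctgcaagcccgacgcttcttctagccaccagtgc
The Wnt7a window held 4 such matches, 2 of which share a base, and the Fzd7 window held 3. Their content of G and C was 77.6% and 65.2%. Over the promoter table, 23.4% of 32851 windows of that length held the motif, as did 61.3% of the 31 windows read for 28 of the 42 genes. No window was available for Wnt5a, Wnt7b, Wnt10a and Fzd2, the other genes called between the fractions. Neither window held CAGGTG, the E-box bound by Zeb and Snail factors, TGANTCA, the AP-1 motif, or CTTTGAT, the TCF/LEF motif, on either strand. The E-box was in 29.0% of the 31 windows and 17.2% of all windows, the AP-1 motif in 6.45% and 6.75%, and the TCF/LEF motif in 6.45% and 3.21%. A match describes the letters only.

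Wnt7b (ENSMUSG00000022382, chr15:85535437-85582473, minus strand), the ligand with the highest mean level per kilobase, had 2703 and 2512 units in Pitx1KO EPCAM- cells against 4412 and 3840 in EPCAM+ cells, 3561 and 1613 against 5818 and 3281 in cells labelled Klf5KO, and 4180 and 1557 against 7918 and 3413 in Nfatc1KO cells. The values were 3130 and 1706 units in the EPCAM- fraction of cells labelled Creb3l1KO against 4950 and 4530 in their EPCAM+ fraction, and in control cells 1029 and 1365 against 4683 and 3365. Each EPCAM- library lay below the EPCAM+ library of the same line and number, and the fractions were apart in 3 lines. The mean was 2336 ± 1047 units in EPCAM- and 4621 ± 1411 units in EPCAM+ libraries (SD, n = 10 each), a log2 difference of -1.07 (SE 0.22, adjusted p 0.0086 by limma). AU022754, an antisense gene whose exons overlap those of Wnt7b, had 52 and 99 units in EPCAM- and 413 and 344 units in EPCAM+ control cells. The sources used here do not say whether reads were counted by strand, so the share of either gene in the other's value is uncertain.

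Wnt10a (ENSMUSG00000026167, chr1:74791516-74804179, plus strand) had 1232 and 354 units in Pitx1KO EPCAM- cells against 2202 and 891 in EPCAM+ cells, 404 and 286 against 1024 and 729 in cells labelled Klf5KO, and 1180 and 840 against 1931 and 1602 in Nfatc1KO cells. The line labelled Creb3l1KO had 984 and 1228 units in EPCAM- against 1569 and 2376 in EPCAM+ libraries, and in control cells 2705 and 1106 against 3840 and 1692. The day 0 control had 3650 and 4245 units. The EPCAM- library was the lower one in 10 of 10 pairs, but the spread between replicates was wide, and the fractions were apart in 3 lines. The means were 1032 ± 696 units in EPCAM- and 1786 ± 904 units in EPCAM+ libraries (SD, n = 10 each), a log2 difference of -0.92 (SE 0.26). The adjusted p of 0.047 by limma lay close to the threshold, and it passed 0.05 on leaving out any of 16 of the 20 libraries, reaching 0.112 without replicate 2 of EPCAM+ cells labelled Creb3l1KO. It was 0.110 with no filter on low values.

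Wnt5a (ENSMUSG00000021994, chr14:28504750-28527448, plus strand) was the ligand that rose. Its values were 25 and 11 units in Pitx1KO EPCAM- cells against 3 and 0 in EPCAM+ cells, 624 and 412 against 122 and 160 in cells labelled Klf5KO, and 277 and 104 against 48 and 4 in Nfatc1KO cells. In cells labelled Creb3l1KO they were 126 and 55 units in the EPCAM- fraction against 15 and 7 in the EPCAM+ fraction, and in control cells 103 and 175 against 16 and 36. The fractions were apart in all 5 lines, while the level between lines differed so far that EPCAM+ cells labelled Klf5KO lay above Pitx1KO EPCAM- cells. EPCAM- libraries averaged 191 ± 195 units and EPCAM+ libraries 41.1 ± 55.5 units (SD, n = 10 each), a log2 difference of 2.75 (SE 0.51, adjusted p 0.0033 by limma). The log2 scale here is that of the value plus 1, which is less than 1 read. Differences of genes with few reads thus depend on single reads and may be too large or too small. Gm2670, an antisense gene that overlaps Wnt5a, had at most 12 units in any library. Per kilobase, Wnt5a held a median of 1.31% of the ligand sum in EPCAM- and 0.0747% in EPCAM+ libraries of day 8.

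Wnt9a (ENSMUSG00000000126, chr11:59306928-59333552, plus strand), a ligand known from joint and blood stem cell development, was not called, although its direction was regular. It had 88 and 81 units in Pitx1KO EPCAM- cells against 81 and 57 in EPCAM+ cells, 216 and 40 against 134 and 36 in cells labelled Klf5KO, and 292 and 96 against 257 and 50 in Nfatc1KO cells. The line labelled Creb3l1KO had 393 and 65 units in EPCAM- against 242 and 45 in EPCAM+ libraries, and in control cells 35 and 99 against 16 and 84. The day 0 control had 54 and 31 units. The EPCAM- library had the higher value in 10 of 10 pairs, but no line had its fractions fully apart, and in the lines Nfatc1KO and labelled Klf5KO and Creb3l1KO replicate 1 lay far above replicate 2 in both fractions. The log2 difference was 0.51 (SE 0.52, adjusted p 0.66 by limma).

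Wnt4, a ligand of epithelial morphogenesis, depended on the replicate. In control cells it had 117 and 5 units in the EPCAM- fraction against 486 and 22 in the EPCAM+ fraction, so that replicate 1 was the higher one in both. Over the 10 pairs it was lower in EPCAM- cells in 9, with a log2 difference of -1.27 (SE 0.63), an adjusted p of 0.29 by limma and of 0.036 with the replicate block. Wnt10b, Wnt11, Wnt16 and Wnt2b had log2 differences between -0.40 and 0.35 and adjusted p-values of 0.58 to 0.96. The summed ligand units per kilobase had a median of 1118 (587 to 1651) in EPCAM- and 2018 (1133 to 3022) in EPCAM+ libraries of day 8. These ranges overlap, and the EPCAM- library had the lower sum in 10 of 10 pairs. The median share of Wnt7b was 43.3% in EPCAM- and 43.1% in EPCAM+ libraries.

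**Figure D2:**
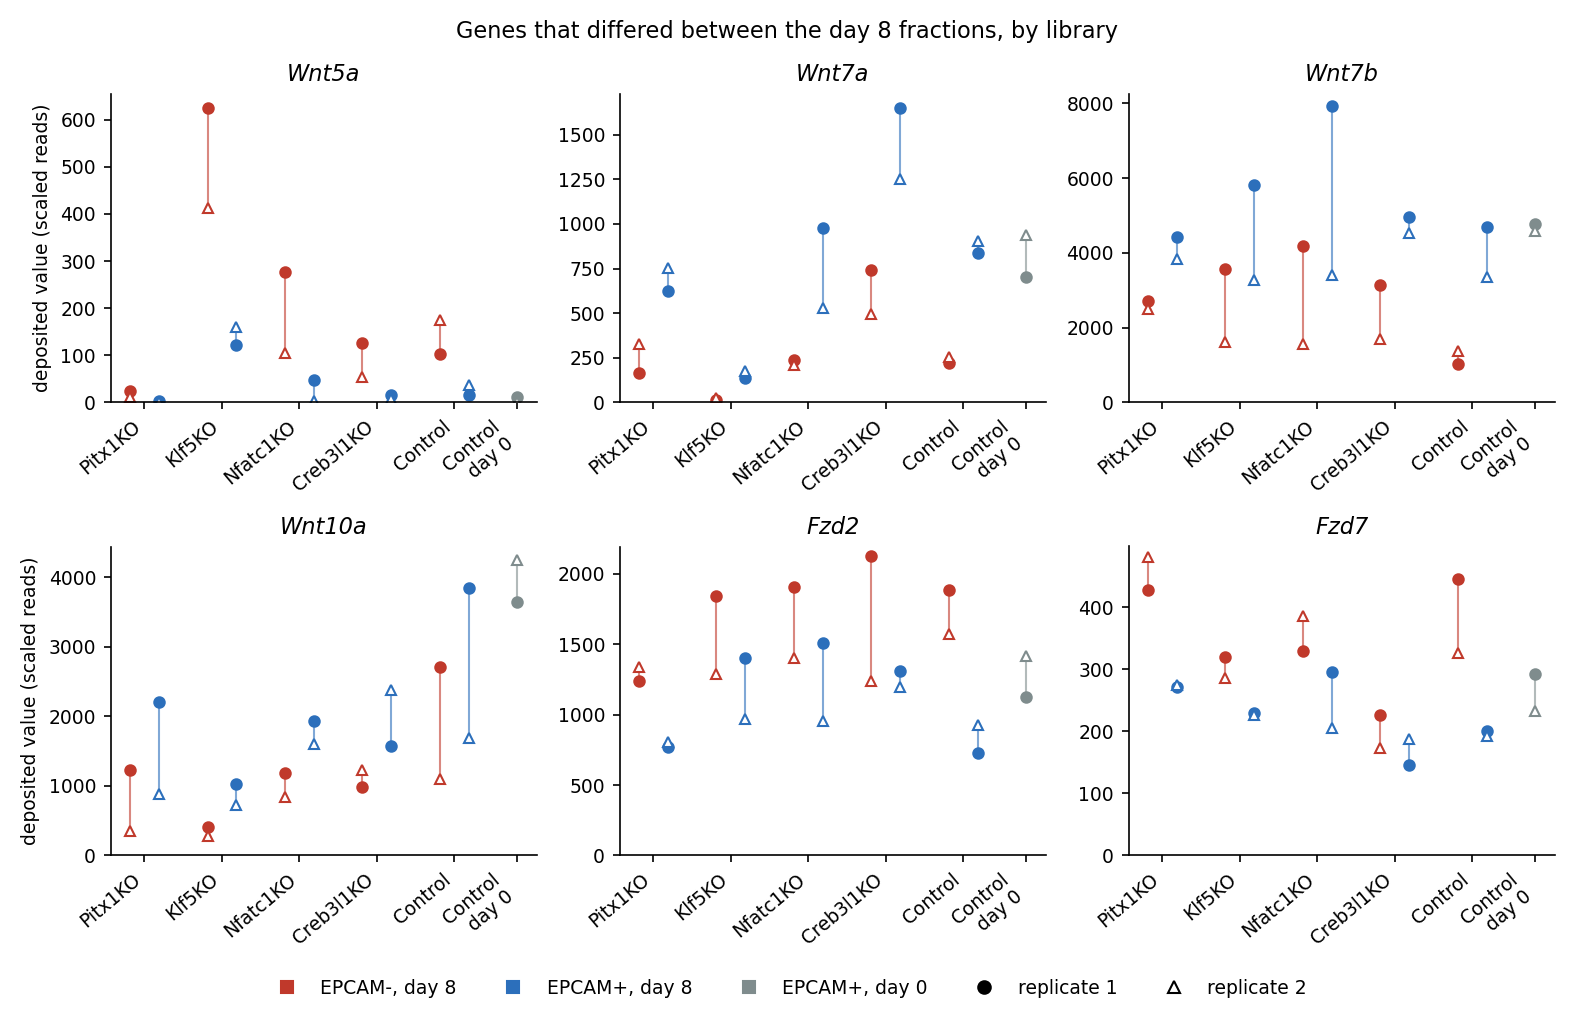
Deposited values of the 6 genes that differed between the day 8 fractions, with EPCAM- cells in red left of EPCAM+ cells in blue for each line and the day 0 control in grey; circles and triangles are replicates 1 and 2, joined by a line. Wnt7a and Wnt5a have separate fractions in every line, while the replicates of Wnt7b and Wnt10a spread widely.

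Of the receptors, Fzd2 (ENSMUSG00000050288, chr11:102604396-102608058, plus strand), the frizzled with the highest mean level per kilobase, had 1240 and 1338 units in Pitx1KO EPCAM- cells against 768 and 802 in EPCAM+ cells, 1845 and 1289 against 1401 and 966 in cells labelled Klf5KO, and 1906 and 1404 against 1510 and 952 in Nfatc1KO cells. The line labelled Creb3l1KO had 2123 and 1236 units in EPCAM- against 1308 and 1197 in EPCAM+ libraries, and in control cells 1881 and 1569 against 726 and 929. It was higher in EPCAM- cells in 10 of 10 pairs, and the fractions were apart in the Pitx1KO and control lines. The log2 difference was 0.60 (SE 0.13, adjusted p 0.0074 by limma), with means of 1583 ± 328 units in EPCAM- and 1056 ± 279 units in EPCAM+ libraries (SD, n = 10 each), 1.5-fold higher in EPCAM- cells.

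Fzd7 (ENSMUSG00000041075, chr1:59482424-59486955, plus strand), a receptor often studied in stem and progenitor cells, had 428 and 481 units in Pitx1KO EPCAM- cells against 271 and 275 in EPCAM+ cells, 319 and 286 against 229 and 227 in cells labelled Klf5KO, and 330 and 386 against 295 and 205 in Nfatc1KO cells. In cells labelled Creb3l1KO it had 226 and 173 units in EPCAM- against 146 and 187 in EPCAM+ libraries, and in control cells 445 and 326 against 201 and 193, with 292 and 232 in the day 0 control. The fractions were apart in every line but the one labelled Creb3l1KO, where replicate 2 went the other way. The log2 difference was 0.58 (SE 0.11, adjusted p 0.0028 by limma), with means of 340 ± 97.4 units in EPCAM- and 223 ± 46.2 units in EPCAM+ libraries (SD, n = 10 each). Without any 1 of the 20 libraries, Fzd2 and Fzd7 both stayed called.

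The other frizzled receptors were not called. Fzd6 was lower in EPCAM- cells in 10 of 10 pairs, but by a log2 difference of -0.25 (SE 0.10, adjusted p 0.19 by limma), and Fzd5 had -0.39 (SE 0.18, adjusted p 0.25). Antisense genes with overlapping exons make the values of both uncertain. Fzd1 had 0.33 (SE 0.19), with an adjusted p of 0.37, and of 0.043 with the replicate block. Per kilobase, Fzd2 held a median of 36.6% of the frizzled sum in EPCAM- and 25.8% in EPCAM+ libraries, and Fzd6 held 25.2% in EPCAM- and 33.6% in EPCAM+ libraries.

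None of the co-receptors was called. Lrp5 had a log2 difference of -0.27 (SE 0.13), with an adjusted p of 0.27 by limma, and of 0.028 with the replicate block, and was lower in EPCAM- cells in 9 of 10 pairs. Lrp6 had -0.05 (SE 0.06, adjusted p 0.71), with means of 3847 ± 376 units in EPCAM- and 4006 ± 478 units in EPCAM+ libraries. Ryk was higher in EPCAM- cells in 9 of 10 pairs, with means of 1681 ± 143 units in EPCAM- and 1506 ± 165 units in EPCAM+ libraries and a log2 difference of 0.16 (SE 0.07, adjusted p 0.22). Ror1 had 0.16 (SE 0.21, adjusted p 0.75), and in the line labelled Klf5KO alone 0.78 (SE 0.48, adjusted p 1), with its fractions apart.

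**Figure D3:**
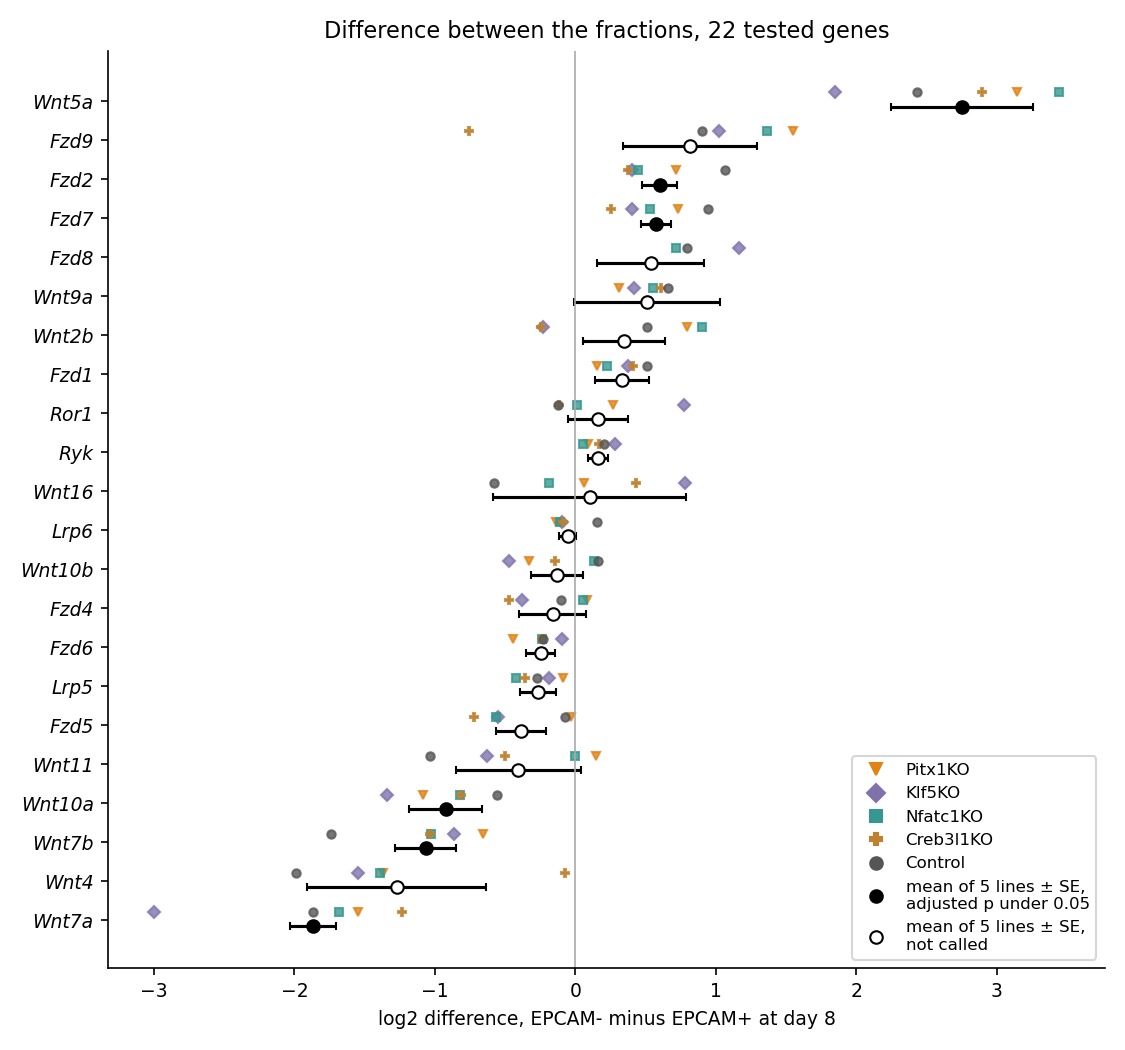
Log2 difference of EPCAM- minus EPCAM+ cells at day 8 for the 22 tested genes, as the mean of 5 lines ± SE (circles, filled where the adjusted p is under 0.05) and for each line (coloured marks; lines at 0 in all 4 libraries are left out). Wnt5a lies farthest to the right and Wnt7a farthest to the left among the means of 5 lines, and the means of the co-receptors lie between -0.27 and 0.16.

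Markers of other cell types were read in the same libraries. The sum of 10 epithelial markers was 16927 to 27568 units in EPCAM- and 36968 to 61763 units in EPCAM+ libraries of day 8. Epcam, Cdh1, Esrp1, Grhl2 and Ovol1 were apart, each lower in EPCAM- libraries. Krt8, Krt18, Krt14 and Krt5 overlapped between the fractions, each with the lower median in EPCAM- libraries. Of these, Krt14 was at 52 to 6797 units in EPCAM- and 106 to 12774 units in EPCAM+ libraries. Trp63 had the higher median in EPCAM- libraries, 4 units against 3.5 units, and never passed 16 units. The sum of 9 mesenchymal markers was 120847 to 179844 units in EPCAM- and 25069 to 138687 units in EPCAM+ libraries, which overlap. Vim, the filament gene of that list, stood at 30486 to 67534 units in EPCAM- and 5163 to 16658 units in EPCAM+ libraries of day 8. Zeb2 was apart as well, at 2374 to 4258 and 515 to 2194 units. Zeb1, Snai1, Snai2, Twist1, Prrx1, Fn1 and Cdh2 overlapped between the fractions, each with the higher median in EPCAM- libraries. The sum of 7 fibroblast markers was 644 to 4980 units in EPCAM- and 140 to 864 units in EPCAM+ libraries, with 5 of the 7 reaching 10 units in each fraction. Col1a1 was at 474 to 3666 units in EPCAM- and 67 to 589 units in EPCAM+ libraries, and Col3a1 at 3 to 1098 and 0 to 152 units. Pdgfrb was at 15 to 265 units in EPCAM- and 0 to 18 units in EPCAM+ libraries. Pdgfra went the other way by median, with 120 units in EPCAM- and 129.5 units in EPCAM+ libraries. Lum and Thy1 never passed 6 units and Dcn had a median of 0 in both. The sum of 6 immune markers was 0 to 24 units in EPCAM- and 0 to 20 units in EPCAM+ libraries, and that of 5 endothelial markers was 65 to 431 units in EPCAM- and 69 to 203 units in EPCAM+ libraries. Of the endothelial genes, Pecam1 stood at 53 to 157 units in EPCAM- and 61 to 149 units in EPCAM+ libraries, and Emcn and Tek never passed 5 units. Kdr was at 0 to 269 units in EPCAM- and 0 to 122 units in EPCAM+ libraries, and Cdh5 at 3 to 31 and 0 to 12 units. The part of these markers in the differences of Wnt5a, Wnt7a, Wnt7b, Wnt10a, Fzd2 and Fzd7 was not tested.

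Other genes of the pathway mostly did not pass the test between fractions. Of 20 transducers of the beta-catenin branch, 1 rose, Tcf7, a TCF/LEF factor, with 71.8 ± 17.0 units in EPCAM- and 44.8 ± 9.60 units in EPCAM+ libraries (SD, n = 10 each; log2 difference 0.67, adjusted p 0.019 by limma). Among the feedback and target genes, 7 of 14 were tested and 1 fell, Cd44, an adhesion receptor and marker, with a log2 difference of -0.41 (adjusted p 0.0070). Axin2, the most widely used reporter of beta-catenin signalling, never passed 4 units, Lgr5 never passed 9 units, and Nkd1, Sp5 and Ascl2 were listed at 0 in all 22 libraries. Ctnnb1, the beta-catenin gene, stood at 7945 to 10048 units.

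Of the 3 tested genes for ligand secretion and processing, Wls, the carrier of Wnt proteins, rose: it averaged 1106 ± 291 units in EPCAM- and 587 ± 213 units in EPCAM+ libraries (SD, n = 10 each; log2 difference 0.97, adjusted p 0.035 by limma). That call was lost on leaving out any of 12 of the 20 libraries, with an adjusted p of up to 0.085 without replicate 1 of EPCAM- cells labelled Klf5KO. In the planar polarity list 1 of 15 tested genes fell, Celsr1, an adhesion receptor of cell polarity, with 3301 ± 773 units in EPCAM- and 4878 ± 1097 units in EPCAM+ libraries (log2 difference -0.56, adjusted p 0.0047). None of 6 tested genes of the R-spondin branch, 4 other inhibitors and 4 glypicans and surface co-factors was called. With the replicate block, with which 10.1% of all genes were called (6.22% without it), 3 transducers, 1 target and 2 of the 4 inhibitors rose, and in the planar polarity list 1 gene rose and 4 fell. Wif1, Frzb, Cer1 and Sost, further secreted inhibitors, were listed at 0 throughout.

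Within single lines fewer genes passed. Wnt7a fell in EPCAM- cells of the control line (log2 difference -1.87, SE 0.36, adjusted p 0.020 by limma), where 0.644% of all genes were called, and in the line labelled Klf5KO (-3.0, SE 0.36, adjusted p 0.0010), where 0.286% were. The control call was lost on leaving out any 1 of its 4 libraries, with adjusted p-values of 0.078 to 0.183, and both calls were lost when only the 2 groups compared were fitted (adjusted p 0.089 in control cells and 0.355 in the line labelled Klf5KO), the second also with voom (0.122). With the replicate block, Fzd2 rose (adjusted p 0.043) and Wnt7b fell (adjusted p 0.046) in control cells too, where 1.14% of all genes were then called. Wnt7a then fell in Nfatc1KO cells (adjusted p 0.032), where 0.956% were. In the Pitx1KO, Nfatc1KO and Creb3l1KO-labelled lines limma called none of the 22, where 0.317%, 0.429% and 0.291% of all genes were called. At an unadjusted p under 0.05 stood 4, 3 and 2 of the 22, and 1193, 1801 and 893 of all 19569 tested genes. With voom on recovered reads, 1 gene was called in Nfatc1KO cells and 0 in the other 2 lines. Whether a knockout line differed from the control line in its fraction difference was tested directly for all 4. Limma and voom each called 0 of 22 genes and limma called 0% of all genes. An unadjusted p under 0.05 was reached by 1 of the 22 in the line labelled Klf5KO and 0 in the other 3. Of all 19569 tested genes, 268 reached it in the line labelled Klf5KO. The counts were 365 in Pitx1KO, 374 in Nfatc1KO and 222 in Creb3l1KO-labelled cells.

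Control EPCAM- cells of day 8 were also set against control EPCAM+ cells of day 0, which joins sort and time. Wnt5a had 103 and 175 units in the day 8 EPCAM- libraries against 12 and 0 in the day 0 libraries, and Wnt7a had 223 and 253 against 704 and 940. Wnt5a rose (log2 difference 5.23, SE 1.14, adjusted p 0.026 by limma, 0.091 with voom and 0.129 with the compared groups alone) and Wnt7a fell (-1.77, SE 0.36, adjusted p 0.017), 2 of 22 genes where 2.01% of all genes were called. The Wnt5a call was lost without replicate 2 of the day 0 group (adjusted p 0.272) and without replicate 1 (0.084) or 2 (0.184) of the day 8 group, and that of Wnt7a without the same 3 libraries (0.174, 0.097 and 0.073). With the replicate block 4 of the 22 genes were called, against 4.31% of all genes. The additions were falls of Wnt4, with 117 and 5 units at day 8 against 654 and 193 units at day 0 (adjusted p 0.016), and of Wnt7b, with 1029 and 1365 units against 4762 and 4577 units (adjusted p 0.011). Of the wider lists, Myc, a target gene, fell, with 2452 to 2471 units at day 8 against 4432 to 5154 units at day 0 (adjusted p 0.049), and Igfbp4, a secreted inhibitor, rose, with 55 to 67 units against 4 to 15 units (adjusted p 0.034). Without replicate 2 of day 0 these adjusted p-values were 0.315 and 0.350.

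Between day 8 and day 0 within control EPCAM+ cells, limma and voom each called 0 of the 22 genes, and limma called 0% of all genes. At an unadjusted p under 0.05 stood 2 of the 22 genes, and 831 of all 19569 tested genes. Wnt5a had 16 and 36 units at day 8 against 12 and 0 at day 0, and Fzd2 had 726 and 929 units against 1124 and 1419. Each had its 2 groups apart, and neither difference passed the adjustment.

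Among the knockouts, all set against the same control libraries, the smallest adjusted p was that of Wnt7a in the line labelled Klf5KO. Its 4 libraries had 13 and 26 units in EPCAM- and 137 and 175 units in EPCAM+ cells, against 223 and 253 and 838 and 902 units in the same fractions of the control line. Every library labelled Klf5KO lay below every control library. Over both fractions Wnt7a averaged 87.8 ± 80.5 units against 554 ± 366 units in control cells (SD, n = 4 each), a log2 difference of -3.05 (SE 0.26, adjusted p 2.2e-05 by limma). Each SD includes the difference between the fractions, and that p takes the fractions as independent. Within EPCAM- cells the log2 difference was -3.62 (SE 0.36, adjusted p 0.00030, where 0.153% of all genes were called) and within EPCAM+ cells -2.48 (SE 0.36, adjusted p 0.012, where 0.0511% were). The EPCAM+ call was lost without replicate 1 of the control (adjusted p 0.140) and without replicate 1 (0.158) or 2 (0.062) of the group labelled Klf5KO. With voom both calls within a fraction were lost (adjusted p 0.071 in EPCAM- and 0.060 in EPCAM+ cells), as with the compared groups alone (0.149 and 0.153).

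Wnt10a fell as well in the line labelled Klf5KO, to 404 and 286 units in EPCAM- and 1024 and 729 units in EPCAM+ cells, against 2705 and 1106 and 3840 and 1692 units in the control fractions. The 4 libraries lay below all 4 of the control. The log2 difference of -1.95 (SE 0.41) had an adjusted p of 0.049 by limma, of 0.019 with the replicate block, and of 0.102 when the fractions of a line and number were taken as correlated. It was 0.081 with voom, 0.107 with no filter, 0.051 with median-of-ratios scaling and 0.127 with the compared groups alone. It passed 0.05 on leaving out any of 6 of the 8 libraries, up to 0.271 without replicate 1 of control EPCAM- cells. Wnt7a and Wnt10a were 2 of 22 genes called in that line, where 0.557% of all genes were called, and 1.62% with the replicate block. Wnt5a stood at 624 and 412 units in EPCAM- and 122 and 160 units in EPCAM+ cells labelled Klf5KO, against 103 and 175 and 16 and 36 units in control cells, with a log2 difference of 2.20 (SE 0.80, adjusted p 0.28).

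In Pitx1KO cells Wnt5a fell, the direction opposite to its value in the line labelled Klf5KO. It had 25 and 11 units in EPCAM- and 3 and 0 units in EPCAM+ cells, against 103 and 175 and 16 and 36 units in the control fractions. Pitx1KO lay below control within each fraction, while over both fractions Pitx1KO EPCAM- cells overlapped with control EPCAM+ cells. The log2 difference was -3.29 (SE 0.80), with an adjusted p of 0.031 by limma, of 0.0064 with the replicate block, of 0.0995 with correlated fractions and of 0.069 with voom. The call was lost on leaving out any of 7 of the 8 libraries, with adjusted p-values of 0.053 to 0.118, the highest without replicate 2 of Pitx1KO EPCAM+ cells.

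Fzd8, a low frizzled receptor, was listed at 0 in all 4 Pitx1KO libraries and all 4 libraries labelled Creb3l1KO, against 6 and 26 units in EPCAM- and 8 and 6 units in EPCAM+ control cells. It had 10 and 10 units in EPCAM- and 3 and 5 units in EPCAM+ cells labelled Klf5KO, 18 and 14 units in EPCAM- and 20 and 4 units in EPCAM+ Nfatc1KO cells, and 9 and 13 units in the day 0 control. In the recovered reads, the 8 libraries at 0 held 0 reads, against 50 reads over the 12 day 8 libraries of the other lines, which had 1 to 11 each. Limma called the fall in Pitx1KO cells (adjusted p 0.0039) and in cells labelled Creb3l1KO (adjusted p 0.0090), both lost with correlated fractions (0.062 and 0.149) and with the compared groups alone (0.066 and 0.146), and the second with a pseudocount of 10 (0.080). Most of the control values lie near the limit of 3 reads, so no fold is given. Fzd8 passed the minimum for testing only through libraries of other groups. A lower value in the Pitx1KO and Creb3l1KO-labelled lines was thus built in, and these calls are no evidence of a fall. Within EPCAM- cells alone the Pitx1KO difference had an adjusted p of 0.046, where 0.915% of all genes were called, and it was lost without any 1 of the 4 libraries (0.080 to 0.262), with voom (0.093), with correlated fractions (0.086), with no filter (0.064) and with a pseudocount of 10 (0.127).

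Counted over both fractions, 2 of 22 genes were called in Pitx1KO cells (Fzd8 and Wnt5a), where 4.28% of all genes were (8.77% with the replicate block, and the same 2 of the 22), and 1 in cells labelled Creb3l1KO, where 0.945% were. Fzd8 is counted in both lines, although a lower value in them was built in. With the replicate block 3 were called in cells labelled Creb3l1KO, against 2.27% of all genes, the additions being rises of Ror1 and Wnt7a. Ror1 had 155 and 237 units in EPCAM- and 180 and 241 units in EPCAM+ cells labelled Creb3l1KO, against 52 and 136 and 63 and 133 units in control cells. The 4 libraries lay above all 4 control libraries, with a log2 difference of 1.18 (SE 0.34) and an adjusted p of 0.13 by limma and 0.027 with the block. Wnt7a had a log2 difference of 1.04 (SE 0.26), with an adjusted p of 0.070 by limma and 0.042 with the block.

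Nfatc1KO cells gave 0 calls among the 22 genes with limma and with voom, where limma called 0.046% of all genes (0.95% with the replicate block, and still 0 of the 22). There 4 of the 22 had an unadjusted p under 0.05, as did 2053 of all 19569 tested genes. The mean of all 4 knockout lines against control gave 0 calls with both as well, where limma called 0.659% of all genes (2.99% and still 0 of the 22 with the block). In that comparison 7 of the 22 had an unadjusted p under 0.05, as did 2607 of all 19569 tested genes. Within single fractions, limma and voom called 0 of the 22 in Pitx1KO EPCAM+ cells (0.409% of all genes with limma), in EPCAM- and EPCAM+ cells labelled Creb3l1KO (0.261% and 0.194%) and in both Nfatc1KO fractions (0%). At an unadjusted p under 0.05 were 3 of the 22 in Pitx1KO EPCAM+ cells, beside 2022 of all 19569 tested genes. In each fraction labelled Creb3l1KO they were 4, beside 1180 of all genes in EPCAM- and 1172 in EPCAM+ cells. In Nfatc1KO cells they were 2 in EPCAM- cells, beside 734 of all genes, and 0 in EPCAM+ cells, beside 1467. Wnt9a had log2 differences of 0.68 in Pitx1KO cells, 0.77 in cells labelled Klf5KO, 1.54 in Nfatc1KO cells and 1.45 in cells labelled Creb3l1KO, each against the same control libraries and none called (adjusted p 0.53 to 0.76 by limma). Wnt7b had log2 differences of 0.58 to 0.75 and Wnt11, a ligand of cell movement, of 0.91 to 1.78, none called.

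**Figure D4:**
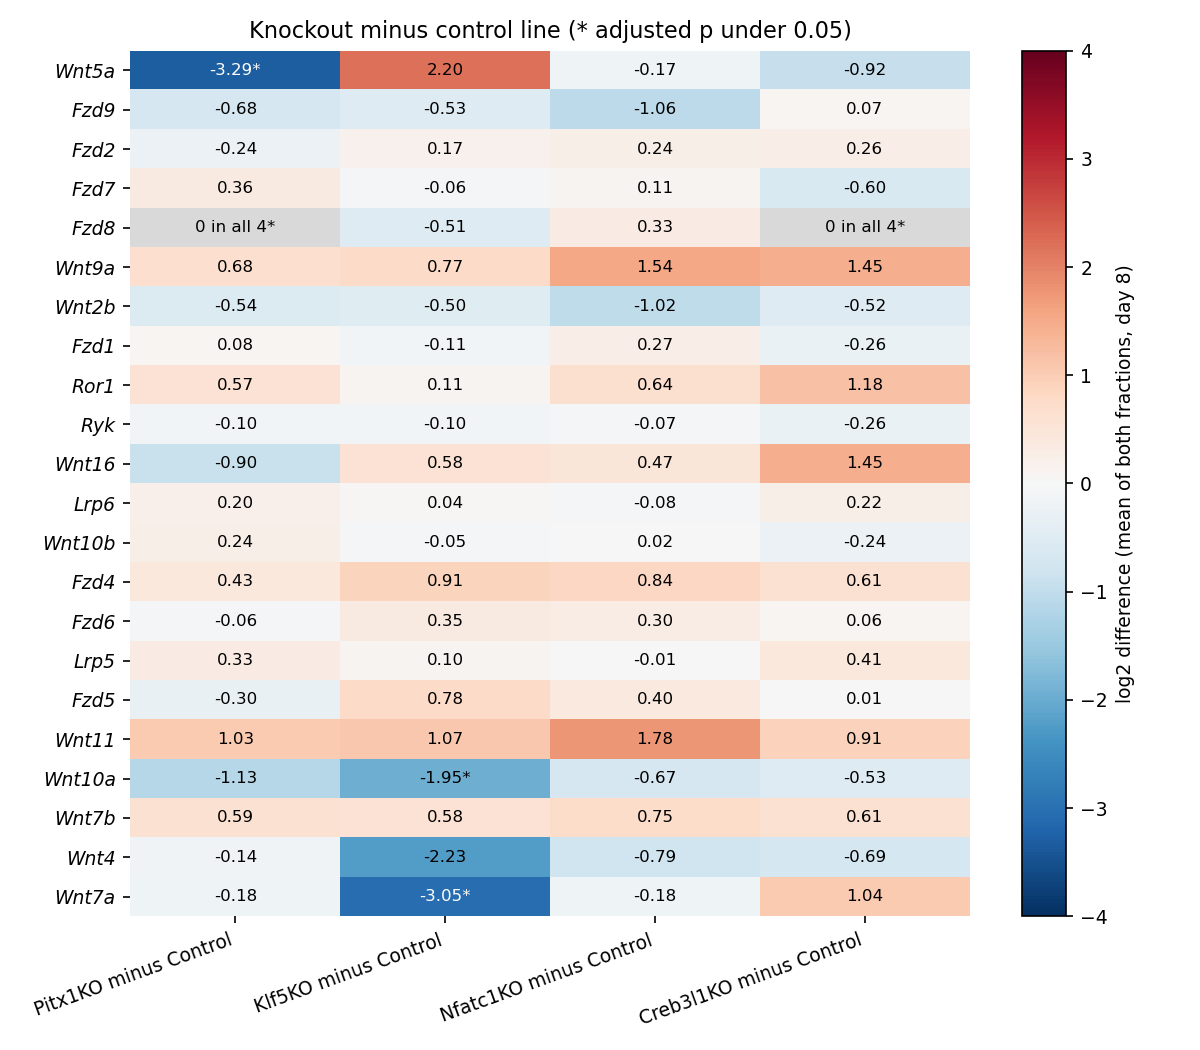
Log2 difference of each knockout line minus the control line at day 8, averaged over both fractions, for the 22 tested genes; red is higher and blue lower in the knockout line, an asterisk marks an adjusted p under 0.05, and grey cells are listed at 0 in all 4 knockout libraries. Wnt7a is lowest in the line labelled Klf5KO, and Wnt5a has opposite signs in the lines Pitx1KO and labelled Klf5KO.

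Of the wider pathway, Gpc4, a glypican that binds Wnt proteins, had 0 to 3 units in the 4 Pitx1KO and in the 4 Creb3l1KO-labelled libraries and 0 to 26 units in those labelled Klf5KO, against 16 to 539 units in the 4 control libraries of day 8. Limma called it lower in these 3 lines, with adjusted p-values of 0.00044, 0.00047 and 0.043 in that order of lines. In Nfatc1KO cells it stood at 10 to 29 units. The call in cells labelled Klf5KO was lost without any of 6 of the 8 libraries, up to 0.176 without replicate 1 of their EPCAM- group, and also with correlated fractions (0.264), voom (0.162) and the compared groups alone (0.226). The call in cells labelled Creb3l1KO was lost with voom (0.073). Gpc4 passed the minimum for testing only through libraries other than those of Pitx1KO and Creb3l1KO-labelled cells, so that a lower value there was built in. The mean of all 4 knockout lines against control, which includes these lines, was called as lower too (adjusted p 0.0016 by limma). Sostdc1, a secreted inhibitor of Wnt and BMP signalling, was listed at 0 in all 12 libraries of Pitx1KO cells and cells labelled Klf5KO and Creb3l1KO. In Nfatc1KO libraries it never passed 3 units. In the control line it had 1801 and 67 units in EPCAM- and 66 and 0 units in EPCAM+ cells of day 8, so that 1 library held most of it. It passed the minimum for testing only through control libraries, so that a lower value in the knockout lines was built in, and no test is given.

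Apc2, a relative of the beta-catenin scaffold Apc, was called as higher in the lines Pitx1KO and labelled Klf5KO and Creb3l1KO. It averaged 427 ± 106 units in Pitx1KO cells and 325 ± 6.16 units in cells labelled Klf5KO. Cells labelled Creb3l1KO averaged 373 ± 56.3 units, against 162 ± 32.5 units in control cells (SD, n = 4 each). The adjusted p-values by limma were 0.0015, 0.045 and 0.010. The second was lost without any 1 of its 8 libraries, up to 0.207 without replicate 1 of control EPCAM+ cells. The third was lost without 2 of 8, up to 0.071 without replicate 1 of EPCAM+ cells labelled Creb3l1KO. In Nfatc1KO cells alone Apc2 was not called. Yet all 16 knockout libraries, Nfatc1KO included, had 221 to 556 units, above the 4 control libraries at 123 to 191 units. The mean of all 4 knockout lines against control was called as higher (log2 difference 1.10, adjusted p 0.0059 by limma). The higher value of Apc2 was thus shared by every knockout line against the same control libraries. Of 15 planar polarity genes, 1 was called as higher and 2 as lower in Pitx1KO cells, where 4.28% of all genes were called. Gpc4 is counted among the 2, although its lower value there was built in. Daam1, a formin, rose (log2 difference 0.58, adjusted p 0.036 by limma) and Celsr2, a relative of Celsr1, fell (-1.96, adjusted p 0.030 by limma). Both calls were lost without 7 or more of the 8 libraries in turn, with log2 differences of 0.53 to 0.62 for Daam1 and -2.59 to -1.32 for Celsr2. Tcf7l1, a TCF factor, rose in cells labelled Creb3l1KO (0.83, adjusted p 0.038, up to 0.199 without replicate 1 of their EPCAM- group). Gpc1, another glypican, fell in cells labelled Klf5KO (-0.75, adjusted p 0.0087, up to 0.070 without replicate 1 of their EPCAM- group, 0.162 with the compared groups alone). With correlated fractions the calls of Gpc1 (0.053), Tcf7l1 (0.184), Daam1 (0.110), Celsr2 (0.169) and Apc2 in cells labelled Klf5KO (0.175) were lost. No feedback or target gene was called in any of the 4 knockout lines, of 7 tested. Limma called 4.28% of all genes in Pitx1KO and 0.557% in Klf5KO-labelled cells. The shares were 0.046% in Nfatc1KO and 0.945% in Creb3l1KO-labelled cells, so 0 of 7 is not read as a result about these genes.

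**Figure D5:**
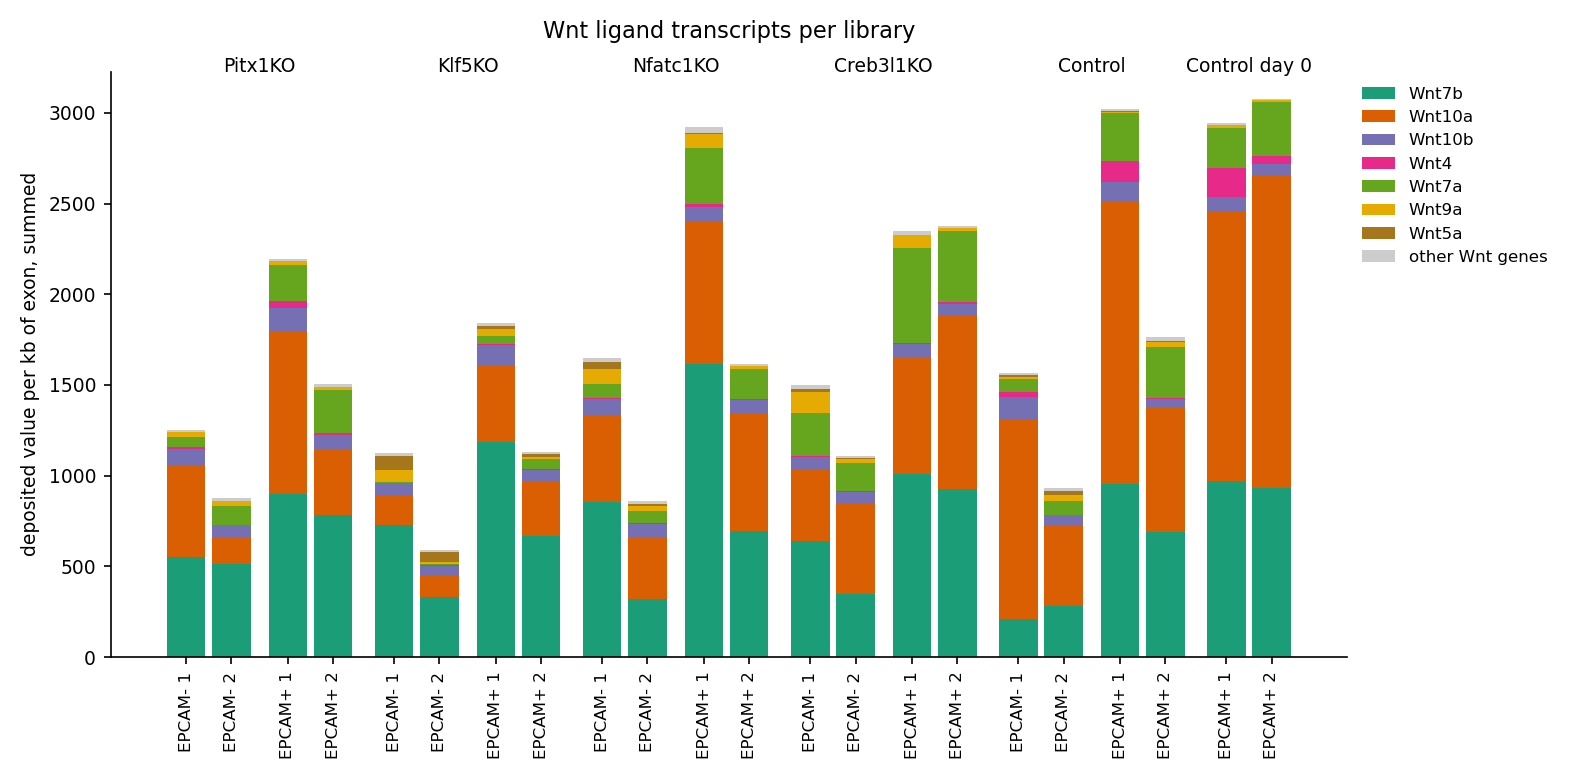
Summed deposited values per kilobase of exon of the Wnt ligands in each library, stacked by gene, with EPCAM- left of EPCAM+ libraries in each line (replicates 1 and 2) and the day 0 control at the right. Wnt7b and Wnt10a make up most of each bar, and the Wnt7a segment is thinnest in the line labelled Klf5KO.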

How the data were processed

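Bulk RNA-seq of 22 libraries in 11 groups of 2 was used. Per the labels, RNA was taken with the RNeasy micro kit and libraries made with Ovation Solo. Per the submitters' processing notes, the tools were STAR, HTSeq, FastQC, Trimmomatic and Picard and the build GRCm38/mm10, with no versions. The deposited value per gene is a score: nearly every value within a library is a whole multiple of 1 step that is rounded up, and the values sum to 20007331 to 20014236. It was read as read counts scaled by the authors to 1 total, a formula that is not given in the sources used here, and was not scaled again. The step, taken as 1 read, was 2.0 to 3.3 units, and at least 99.8% of values above 0 in a library lay on it.

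Genes of at least 10 units (3 to 5 reads) in at least 2 libraries, 19569, were tested on log2(value + 1) with limma 3.58.1 in R 4.3.3 (trend and robust options, 1 mean per group over all libraries), with Benjamini-Hochberg adjustment within each contrast and a threshold of 0.05. Differences over both fractions take the 2 fractions of a line as independent, hence the values with correlated fractions (estimated correlation 0.503). The replicate number is a batch tag in the labels, and pairs here are samples of a line that share that number. The labels do not say whether the fractions of a pair came from the same culture. The main fit leaves the pairing out. The replicate differences correlated over 0.1 in 36 of 55 pairs of groups (median 0.146, range -0.131 to 0.381). The fit with that number as a block is the replicate block. Alternatives were the groups compared alone, voom on recovered reads with TMM scaling, median-of-ratios scaling, a pseudocount of 10, no filter, and leaving out each library. The main fit was tried on simulated data for the mean of the fractions only. Those data had a fixed spread and no correlation between samples. They did not cover the knockout or single-line comparisons, or changes of genes with few reads.

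Lengths and positions came from GENCODE M21, which held 99.3% of the identifiers. Python 3.11.15, numpy 2.4.6, pandas 2.3.3 and matplotlib 3.10.9 were used. The genes described and the lists were chosen with earlier results of these data known. Values are given in every library for Wnt5a, Wnt7a, Wnt9a and each gene called in any contrast, and other pathway genes are named where called. A further allele of the tumour genotype is not reported here.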

Additional observations from a re-analysis of the deposited data

Results flagged for a closer look

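Fzd7 and Lrp6 had effects whose sign differed between fractions or lines, with every library of one group on one side and every library of the other on the opposite side. The log2 difference of Fzd7 between cells labelled Klf5KO and control cells was -0.33 in EPCAM- and 0.21 in EPCAM+ cells. That of Lrp6, in the same comparison, was -0.09 in EPCAM- and 0.17 in EPCAM+ cells. Between EPCAM- and EPCAM+ cells, Lrp6 had a log2 difference of -0.10 in the line labelled Klf5KO, -0.11 in Nfatc1KO cells and 0.16 in control cells. These differences of sign were picked out by position alone and were not tested that way. The share of all tested genes with such a change of sign was not counted, so these genes cannot be set against it. In the test of the difference between each knockout line and the control line, no member of the set was called by limma (smallest adjusted p 1).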

How the results depend on the processing

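Counts of called genes are of the 22 tested. The share of all genes called is given here only for limma with and without the replicate block. Counts under the other settings have no such share beside them, so they are not read as a result about these genes. With the replicate block they were 9 for the mean of the fractions in place of 6, 3 within control and 1 within Nfatc1KO cells, 4 for control EPCAM- day 8 against day 0, and 3 in cells labelled Creb3l1KO. The block ended no call of the 22. With correlated fractions they were 11 for the mean of the fractions, 4 within control, 1 within Creb3l1KO-labelled, 2 within Nfatc1KO and 2 within Pitx1KO cells, and for the knockouts over both fractions 0 in Pitx1KO, 1 in Klf5KO-labelled and 0 in Creb3l1KO-labelled cells. With only the compared groups, 0 were called within the control and Klf5KO-labelled lines, 1 for Klf5KO and 1 for Pitx1KO over both fractions, and 0 for both within a fraction. With voom they were 1 for control day 8 EPCAM- against day 0, 0 within the Klf5KO-labelled line and 1 within Nfatc1KO cells, 2 in Creb3l1KO-labelled, 1 in Klf5KO-labelled and 1 in Pitx1KO cells over both fractions, and 0 for the last 2 within a fraction. Median-of-ratios scaling gave 1 within Nfatc1KO cells and 1 in Klf5KO-labelled cells. No filter gave 1 within Nfatc1KO, 1 in Klf5KO-labelled and 1 in Pitx1KO cells, and 0 in Pitx1KO EPCAM- cells. A pseudocount of 10 gave 1 within Nfatc1KO, 0 in Creb3l1KO-labelled and 0 in Pitx1KO EPCAM- cells. The cause of these changes was not tested, apart from the fewer samples in fits of the compared groups.

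Leaving out 1 library gave 5 to 6 calls for the mean of the fractions, 0 within control, 1 within Klf5KO-labelled, and 0 to 1 within Nfatc1KO and Pitx1KO cells. It gave 0 to 2 for control EPCAM- day 8 against day 0, 1 to 2 in Creb3l1KO-labelled, Klf5KO-labelled and Pitx1KO cells over both fractions, 1 in Klf5KO-labelled EPCAM- cells, 0 to 1 in their EPCAM+ cells and 0 in Pitx1KO EPCAM- cells. Where a group is left with 1 library, it is assumed to vary like the others. Uncalled values near 0 changed sign. Wnt5a in Nfatc1KO cells, with a log2 difference of -0.17 in the report, was 0.022 with a pseudocount of 10 and ran from -0.995 to 0.65 without 1 library. Wnt7a ran from -0.40 to 0.037 in Nfatc1KO and from -0.42 to 0.062 in Pitx1KO cells. Depth limits Fzd8, Fzd9, Wnt2b and Wnt16, which stand at a few reads, and the Sfrp and Dkk genes, where an absence cannot be told from a level under 3 reads.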
